A study of Mus musculus with 8 samples.

Results

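Nascent transcription after acute activation of the farnesoid X receptor (FXR) was described from 1 pair of global run-on sequencing (GRO-seq) libraries of mouse liver. The mice of both libraries carried the floxed Fxr allele without Cre (Fxr-Flox). The genes are the rows of the expression table with a length of at least 300 bases and a mean across the 4 GRO-seq libraries of 0.5 RPKM (reads per kilobase of gene, scaled to library size) or more, which were 9683 of 25124 rows. The study treated mice with vehicle or GW4064, a synthetic FXR agonist, and compared RNA-seq and GRO-seq of the livers. Fxr-Flox mice and mice without hepatic FXR (labelled FXR KO) went into GRO-seq with 1 library for each genotype and treatment. RNA-seq of livers labelled WT had 2 libraries for each treatment.

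The labels give the C57BL/6 strain for every sample. All mice were fasted overnight and received GW4064 at 30 mg/kg or vehicle for 1 h. The labels call the Fxr-Flox livers WT, and the study describes males of the Fxr-Flox line. In its knockout, Albumin-Cre removes FXR from hepatocytes, so other liver cells keep the gene. The labels state that RNA was pooled from 2 mice. GRO-seq groups are described as replicated in the methods. The table holds 1 GRO-seq column for each group, and it is treated here as 1 library. Whether such a column joins several libraries is not given in the sources used here, and the counting intervals do not cover the spread between mice. The vehicle is DMSO in the sample titles and corn oil in the methods. The age of the mice is not given in the sources used here.

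FXR, encoded by Nr1h4, is the nuclear receptor for bile acids. Bound to DNA with a retinoid X receptor, often at inverted repeats of the nuclear receptor half-site, it turns on bile acid export and the corepressor SHP, and through SHP it lowers bile acid synthesis. GRO-seq labels RNA that engaged polymerases are making in isolated nuclei, so its reads follow transcription along the gene, introns included, before the RNA is processed or decays.

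The vehicle library held 14173736 reads and the GW4064 library 10593326 reads, rebuilt from RPKM and gene length. The FXR KO pair was shallower, with 5141671 and 5069406 reads. A member had a median of 442 reads in the vehicle library and 310 in the GW4064 library, and 9564 of the 9683 had at least 20 reads in at least one of both. All 8 hepatocyte markers passed the filter, against 4 of 8 Kupffer cell markers, 4 of 9 stellate cell markers and 2 of 6 cholangiocyte markers. No marker of any list was at 0 in either Fxr-Flox library. In liver tissue, fewer cells of a type and less RNA made per cell cannot be told apart. The row of Nr1h4 spans the whole gene and does not check the knockout. It held 16.7 and 20.6 RPKM in the FXR KO libraries.

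With 1 library for each treatment, the spread between livers is unknown. No GRO-seq ratio was tested, and the intervals below are exact 95% intervals that cover counting error only. Folds of single genes are ratios of RPKM. Counts of genes past 2-fold use log2 of RPKM + 0.1, so low genes show less than their full change, and ask for at least 20 reads with vehicle or with GW4064. The values did not separate the strands. In the vehicle library, 230 rows lying inside a gene of the other strand carried a median of 1.06 times the level of that host gene. Of the 9683 members, 2418 overlap another row. The members nearest the filter had a mean of 0.5 RPKM inside it and 0.49975 RPKM outside it.

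After 1 h of GW4064, 257 genes were higher by at least 2-fold (2.65% of the 9683) and 161 were lower (1.66%). By at least 4-fold, 39 were higher and 19 lower, and by at least 8-fold, 12 were higher and 3 lower. For 189 of the higher and 101 of the lower genes the whole counting interval lay past 2-fold. The higher genes went from a median of 1.49 to 5.21 RPKM, and the lower genes from 4.07 to 1.39 RPKM. Together the higher genes held 3.0% of all reads on members in the vehicle library and 9.89% in the GW4064 library. The lower genes held 4.36% and 1.65%. With 1 RPKM added in place of 0.1, 140 genes were higher and 62 lower.

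Most genes lay within 2-fold of their vehicle level. The median log2 ratio of all members was -0.10, with quartiles of -0.30 and 0.13, and 63.1% of members lay below 0. Of the higher genes 239 were protein-coding, 14 were non-coding and 4 were pseudogenes, which is 2.64%, 2.62% and 4.82% of the members of each kind. The lower genes comprised 140, 17 and 4 of these kinds (1.54%, 3.18% and 4.82%). Among the 4131 genes with at least 1000 reads over the pair, where the interval reaches a median of 0.118 on the log2 scale to either side, 153 were higher and 90 lower by 2-fold.

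**Figure D1:**
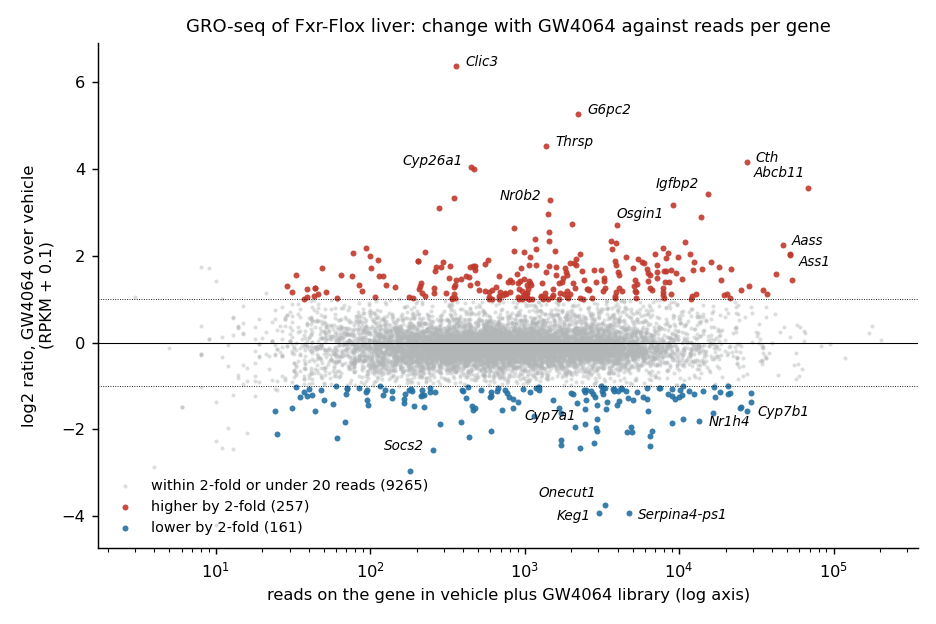
Each point is 1 of the 9683 genes, with the reads on the gene in both Fxr-Flox libraries on the x axis (log scale) and the log2 ratio of GW4064 over vehicle (RPKM + 0.1) on the y axis. The 257 higher genes (red) and the 161 lower genes (blue) are found at low and at high read numbers, and dotted lines mark 2-fold.

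Of the known FXR-induced genes, 26 of the 28 listed passed the filter, and 8 of these were higher and 2 lower by 2-fold, against 2.65% and 1.66% of all members. The list's median log2 ratio was 0.54, beside -0.10 for all members. The list was drawn up as textbook FXR targets, with results of these data known. It also holds Nr1h4 itself and Lpin1. The study reports lower Lpin1 with tropifexor, another FXR agonist, in mice fed a steatohepatitis diet. Its 8 higher genes were Abcb11, Cyp26a1, Nr0b2, Osgin1, Scarb1, Hes1, Abcb4 and Sdc1.

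Abcb11 encodes the bile salt export pump of the canalicular membrane and lies on chromosome 2 from 69238282 to 69342616 (mm10). It stood at 4.61 RPKM with vehicle and 56.0 with GW4064, on 6819 and 61906 reads, and was 12.1-fold higher (95% counting interval 11.8 to 12.5). Among the higher genes it had the most reads of those past 8-fold. In RNA-seq it was at 5.42 and 4.88 RPKM with vehicle and 26.9 and 27.2 with GW4064 (limma log2 fold change 2.37, SE 0.07, adjusted p = 0.000789), so all 4 libraries separated by treatment.

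Nr0b2 encodes SHP, the repressor through which FXR lowers bile acid synthesis, and lies on chromosome 4 from 133553376 to 133556686. GRO-seq gave 3.65 RPKM with vehicle and 36.6 with GW4064, on 171 and 1284 reads, which is higher by 3.33 on the log2 scale (95% counting interval 3.10 to 3.57). RNA-seq gave 6.83 and 4.04 RPKM with vehicle and 31.5 and 30.5 with GW4064 (limma log2 fold change 2.54, SE 0.24, adjusted p = 0.00706). Osgin1, an oxidative stress induced growth inhibitor, went from 9.06 to 82.0 RPKM and was 9.04-fold higher (95% counting interval 8.50 to 9.63). Cyp26a1, which breaks down retinoic acid, went from 0.549 to 10.7 RPKM on 29 and 422 reads, 19.5-fold higher (95% counting interval 13.4 to 29.4), and its neighbour Cyp26c1 went from 0.814 to 3 RPKM. Both RNA-seq values of Osgin1 and Cyp26a1 with GW4064 lay above both with vehicle, and both genes rose (limma adjusted p = 0.00209 and 0.0163).

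Smaller differences were found at the other induced targets. Scarb1, the HDL receptor, was 3.22-fold higher (95% counting interval 3.07 to 3.38), and Hes1, a transcriptional repressor of the Notch pathway, was 2.56-fold higher (95% counting interval 2.04 to 3.21) on 122 and 233 reads. Abcb4, the canalicular phospholipid floppase, went from 9.91 to 23.2 RPKM, 2.34-fold higher (95% counting interval 2.28 to 2.40), and Sdc1, a heparan sulfate proteoglycan, was 2.23-fold higher (95% counting interval 2.03 to 2.45). All 4 genes rose in RNA-seq, with limma log2 fold changes of 1.02, 2.19, 0.63 and 0.39 (adjusted p = 0.00627, 0.000815, 0.0109 and 0.039). For Hes1 the change in RNA-seq was the larger one, since its GRO-seq log2 ratio was 1.33.

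The 16 listed targets within 2-fold ran from a log2 ratio of 0.83 for C3, a complement protein, to -0.23 for Kng1, a kininogen. Mafg, a small Maf repressor (0.69), and Abcg5 (0.63) and Abcg8 (0.49), which form a sterol exporter, lay near the upper end. The 3 fibrinogen genes Fga, Fgb and Fgg had log2 ratios of -0.05, 0.08 and 0.11. Fgf21 had only 24 and 23 reads, and its counting interval on the log2 scale ran from -0.53 to 1.25. Slc51a and Slc51b, the subunits of the basolateral bile acid exporter, stayed below the filter. Slc51b had 1 and 17 reads, a ratio of 22.7 (95% counting interval 3.56 to 951).

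The 2 listed genes that were lower include the receptor itself. Nr1h4 lies on chromosome 10 from 89454234 to 89506658 and stood at 15.1 RPKM with vehicle and 4.23 with GW4064, on 11189 and 2348 reads, 3.56-fold lower (95% counting interval 3.41 to 3.73). It fell in RNA-seq as well, from 9.09 and 9.38 to 3.90 and 3.72 RPKM (limma log2 fold change -1.26, adjusted p = 0.00163). Lpin1, a phosphatidate phosphatase of triglyceride synthesis, went from 29.7 to 11.4 RPKM, 2.61-fold lower (95% counting interval 2.54 to 2.69), and fell in RNA-seq (limma log2 fold change -1.02, adjusted p = 0.0109).

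Promoters were searched for GGTCA, any base and TGACC, the inverted repeat with a 1-base spacer that is the textbook site of FXR with its partner. It reads alike on both strands, and the spacer base was not scored. RefSeq windows (GRCm38.p6) of 300 bases, from 250 before to 50 after the gene start, were found for 7720 of the 9683 members. A match with at most 1 mismatch was found in 0.758% of all 32851 windows and 0.664% of 9789 windows of members. For higher genes it was 4 of 283 windows (1.41%), and for lower genes 2 of 146 (1.37%). With at most 2 mismatches the share was 10.7% of all windows, 15.5% for higher and 9.59% for lower genes. These shares were not compared by a test. A match is a run of letters and no evidence of binding, and no match says only that these letters are absent from the window.

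Of the 8 higher FXR targets, Abcb11 had a match with 1 mismatch (window chr2:69342567-69342866, minus strand, match starting 62 bases before the gene start), and Osgin1 (chr8:119436897-119437196, plus strand, 121 bases before) and Cyp26a1 (chr19:37697558-37697857, plus strand, 8 bases after) had matches with 2 mismatches. These windows are printed because they belong to higher FXR targets and hold a match with up to 2 mismatches. The matched letters are in capitals.
Abcb11: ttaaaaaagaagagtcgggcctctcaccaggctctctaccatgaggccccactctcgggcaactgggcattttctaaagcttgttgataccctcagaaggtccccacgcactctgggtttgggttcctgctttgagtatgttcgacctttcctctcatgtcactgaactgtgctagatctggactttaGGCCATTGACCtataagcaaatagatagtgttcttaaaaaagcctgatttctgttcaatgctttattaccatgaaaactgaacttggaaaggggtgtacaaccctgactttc
Osgin1: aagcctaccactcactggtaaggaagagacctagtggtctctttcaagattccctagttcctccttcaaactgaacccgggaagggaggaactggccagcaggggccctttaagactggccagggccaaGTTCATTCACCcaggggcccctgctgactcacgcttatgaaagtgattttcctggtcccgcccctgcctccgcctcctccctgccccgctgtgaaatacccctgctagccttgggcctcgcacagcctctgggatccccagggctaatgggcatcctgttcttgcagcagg
Cyp26a1: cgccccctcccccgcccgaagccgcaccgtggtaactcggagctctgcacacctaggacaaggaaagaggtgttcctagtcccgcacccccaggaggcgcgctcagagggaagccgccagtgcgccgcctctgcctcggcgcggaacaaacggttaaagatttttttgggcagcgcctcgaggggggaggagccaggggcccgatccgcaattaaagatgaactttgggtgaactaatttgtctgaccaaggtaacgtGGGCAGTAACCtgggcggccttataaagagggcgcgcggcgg
Nr0b2, Abcb4 and Sdc1 had no match with up to 2 mismatches in their windows, and the promoters of Hes1 and Scarb1 were not searched, since no window was matched to them. Outside the list, and chosen after the values were seen, Steap3 (GRO-seq log2 ratio 2.09), a ferrireductase, had the exact repeat GGTCAATGACC 105 bases before its start, and Igfbp2 (3.44) and Insig2 (2.06) had matches with 1 mismatch, AGTCAGTGACC and GGTCTTTGACC. The lower genes Ccl27a (-1.25) and Ugt3a1 (-1.37) also had matches with 1 mismatch, GGTCACTGACA and GGTCATTGACA.

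The largest ratios belonged to genes outside the classical bile acid pathway. Clic3, of the chloride intracellular channel family, lies on chromosome 2 from 25456843 to 25458772 and stood at 0.110 RPKM with vehicle and 17.5 with GW4064, on only 3 and 357 reads. Its ratio was 159 (95% counting interval 54.0 to 776), a wide interval that starts far above 2-fold. RNA-seq gave 0.967 and 0.849 RPKM with vehicle and 24.0 and 22.6 with GW4064 (limma log2 fold change 4.54, SE 0.08, adjusted p = 0.000227).

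G6pc2, a glucose-6-phosphatase catalytic subunit best known from pancreatic islets, lies on chromosome 2 from 69219949 to 69227993, next to Abcb11. It went from 0.553 to 25.2 RPKM on 63 and 2151 reads, 45.7-fold higher (95% counting interval 35.6 to 59.7), and rose in RNA-seq from 0.892 and 0.434 to 15.9 and 17.7 RPKM (limma adjusted p = 0.00301). Thrsp, a promoter of lipogenesis, went from 1.05 to 26.7 RPKM on 69 and 1305 reads, 25.3-fold higher (95% counting interval 19.9 to 32.7). Cth, which makes cysteine from cystathionine, went from 4.29 to 78.4 RPKM on 1873 and 25586 reads, 18.3-fold higher (95% counting interval 17.4 to 19.2). Cth was the second densest of the 15 highest genes with GW4064, after Osgin1 at 82.0 RPKM.

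Paxx, a DNA repair factor, is the neighbour of Clic3 and was 17.1-fold higher (95% counting interval 12 to 25) on 34 and 434 reads. Igfbp2, which binds insulin-like growth factors, went from 4.20 to 46.4 RPKM, 11.1-fold higher (95% counting interval 10.5 to 11.6). Gadd45b, a stress-induced growth arrest gene, was 10.7-fold higher (95% counting interval 7.66 to 15.3), and Gdf15, a stress-responsive cytokine, was 9.37-fold higher (95% counting interval 6.55 to 13.8). The list of the 15 highest ratios ended with Fam47e (8.80-fold), the potassium channel gene Kcnk5 (7.66-fold) and Fbf1, which acts at cilia (7.36-fold). All 15 genes rose in RNA-seq, with limma adjusted p from 0.000227 (Clic3) to 0.0163 (Cyp26a1).

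**Figure D2:**
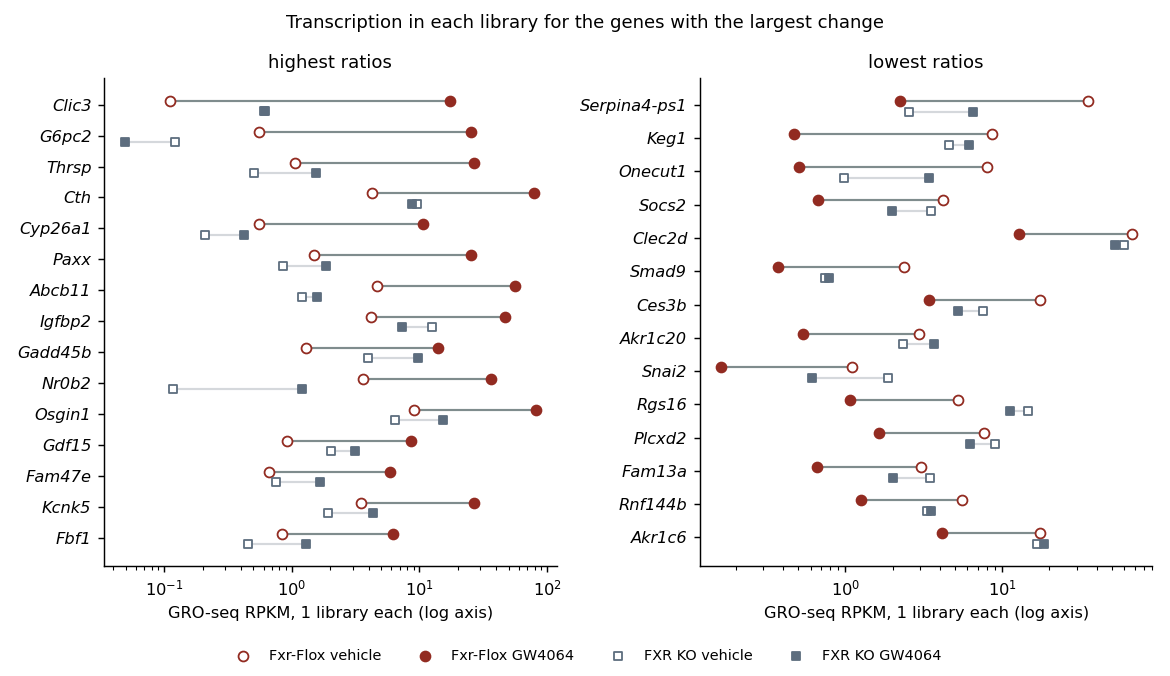
GRO-seq RPKM (log scale) of the 15 genes with the highest and 14 of the 15 with the lowest Fxr-Flox ratio, named in rows, with 1 library for each point. Circles are the Fxr-Flox libraries and squares the FXR KO libraries, open for vehicle and filled for GW4064; the KO squares of Onecut1 and Serpina4-ps1 run the other way from their circles by over 2-fold.

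Among the 15 lowest ratios, 3 genes stood apart from the others, at log2 ratios of -3.94, -3.92 and -3.74. Serpina4-ps1, a serpin pseudogene, went from 35.4 to 2.22 RPKM on 4501 and 211 reads, 15.9-fold lower (95% counting interval 13.9 to 18.4). Keg1 went from 8.56 to 0.470 RPKM, 18.2-fold lower (95% counting interval 15.2 to 22.0). Onecut1, the hepatocyte transcription factor HNF6, lies on chromosome 9 from 74861921 to 74889647 and stood at 8.01 RPKM with vehicle and 0.507 with GW4064 on 3146 and 149 reads, 15.8-fold lower (95% counting interval 13.4 to 18.7).

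None of these 3 passed the RNA-seq test. Onecut1 was at 0.893 and 0.924 RPKM with vehicle and 0.609 and 1.66 with GW4064 (limma log2 fold change 0.15, SE 0.41, adjusted p = 0.88). Serpina4-ps1 was at 6.75 and 6.13 RPKM with vehicle and 2.97 and 15.9 with GW4064 (limma log2 fold change 0.10, SE 0.74, adjusted p = 0.96). In both genes 1 GW4064 library of RNA-seq lay below and the other above the vehicle libraries, so the groups overlapped.

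Socs2, a feedback inhibitor of growth hormone signalling, went from 4.22 to 0.672 RPKM on 227 and 27 reads, 6.28-fold lower (95% counting interval 4.21 to 9.75), while its RNA-seq values were 4.16 and 2.42 RPKM with vehicle and 2.84 and 10.7 with GW4064 (limma log2 fold change 0.78, SE 0.63, adjusted p = 0.52). Ces3b, a carboxylesterase, was 5.13-fold lower (95% counting interval 4.58 to 5.75) in GRO-seq and did not pass the test in RNA-seq, with a limma log2 fold change of 0.00 (SE 0.09, adjusted p = 0.99). Smad9, a BMP effector, was 6.30-fold lower (95% counting interval 5.39 to 7.39) in GRO-seq, with a limma log2 fold change of -0.14 (adjusted p = 0.77).

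Others of the 15 lowest genes were lower in both assays. Clec2d, a C-type lectin gene, went from 67.2 to 12.7 RPKM, 5.28-fold lower (95% counting interval 4.90 to 5.69). Fam13a was 4.66-fold lower (95% counting interval 4.28 to 5.08), Plcxd2 4.65-fold lower (95% counting interval 4.33 to 5) and Rnf144b, a ubiquitin ligase, 4.41-fold lower (95% counting interval 4.07 to 4.78). Snai2, a zinc finger repressor, had 55 and 6 reads and was 6.85-fold lower (95% counting interval 2.95 to 19.5). Akr1c6, a hydroxysteroid dehydrogenase, was 4.19-fold lower (95% counting interval 3.91 to 4.48). These 6 genes fell in RNA-seq, with limma log2 fold changes from -1.88 (Fam13a, adjusted p = 0.00572) to -0.89 (Plcxd2, adjusted p = 0.0418). Rgs16, a regulator of G protein signalling, and Akr1c20 were 4.88-fold and 5.47-fold lower in GRO-seq and did not pass (limma adjusted p = 0.079 and 0.0692). Genes of the Akr1c, Ces and Cyp2c families have close copies, and how their shared reads were assigned is uncertain.

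In bile acid synthesis and conjugation, 16 of 18 listed genes passed the filter, with 0 higher and 3 lower by 2-fold (1.66% of all members were lower) and a median log2 ratio of -0.20. Cyp7a1, the rate-limiting enzyme of the classical pathway, lies on chromosome 4 from 6265612 to 6275632. It stood at 14.4 RPKM with vehicle and 3.83 with GW4064 on 2045 and 407 reads, 3.76-fold lower (95% counting interval 3.37 to 4.19). Its RNA-seq values were 13.8 and 16.4 RPKM with vehicle and 9.67 and 12.6 with GW4064 (limma log2 fold change -0.44, SE 0.15, adjusted p = 0.17), with both GW4064 values below both vehicle values.

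Cyp7b1, of the alternative pathway, went from 9.07 to 2.97 RPKM on 22028 and 5398 reads, 3.05-fold lower (95% counting interval 2.96 to 3.14). In RNA-seq it was at 4.14 and 5.26 RPKM with vehicle and 2.55 and 6.15 with GW4064 (limma log2 fold change -0.23, SE 0.40, adjusted p = 0.78), with 1 GW4064 library above both vehicle libraries. The third lower gene of the list was Akr1c6. Cyp8b1, which adds the hydroxyl that makes cholic acid, went the other way, from 31.9 to 48.1 RPKM (1.51-fold), within 2-fold. Cyp27a1 had a log2 ratio of 0.43, Baat, which joins bile acids to taurine or glycine, one of -0.67, and Cyp2c70, which makes muricholic acids, one of -0.92. In RNA-seq 2 genes of the list rose and 3 fell (3.92% and 2.86% of all genes fitted), and 11 did not pass. Those that fell were Akr1c6, Baat and Cyp39a1.

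In bile acid and organic anion transport, 3 of 12 measured genes were higher and 0 lower (2.65% and 1.66% of all members), and the median was 0.03. The 3 were the canalicular exporters Abcb11 and Abcb4 and the flippase Atp8b1, which went from 0.998 to 2.38 RPKM, 2.39-fold higher (95% counting interval 2.25 to 2.53), and all 3 rose in RNA-seq. The remaining 9 lay between -0.32 (Slco1b2, a basolateral uptake carrier) and 0.23 (Abcc3, a basolateral exporter). Abcc2, the canalicular conjugate exporter, was at 28.8 RPKM with vehicle and 28.7 with GW4064 on 22831 and 16972 reads, a log2 ratio of -0.01 with a counting interval of -0.04 to 0.02. Slc10a1, the sodium-dependent uptake carrier NTCP, had 0.06.

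Among nuclear receptors and their coregulators, 3 of 30 were higher and 1 was lower (2.65% and 1.66% of all members), and the median was -0.12. Beside Nr0b2, the higher genes were Nr1i2, the xenobiotic receptor PXR (from 5.50 to 17.8 RPKM, 3.23-fold), and Nrip1, a corepressor (from 1.88 to 5.47 RPKM, 2.92-fold). Nr1h4 was the lower one. Rxra, the partner of FXR, had a log2 ratio of -0.55 (counting interval -0.59 to -0.52) and fell in RNA-seq (limma log2 fold change -0.49, adjusted p = 0.0132).

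Hepatocyte transcription factors had 4 of 14 genes lower and 0 higher (1.66% and 2.65% of all members), with a median of -0.13. The lower genes were Onecut1 and the 3 forkhead pioneer factors. Foxa2 went from 8.70 to 2.37 RPKM on 319 and 65 reads, 3.67-fold lower (95% counting interval 2.80 to 4.87). Foxa1 went from 4.64 to 1.62 RPKM, 2.87-fold lower (95% counting interval 2.28 to 3.64), and Foxa3 went from 6.27 to 3.02 RPKM, 2.08-fold lower (95% counting interval 1.83 to 2.36). In RNA-seq Foxa3 fell (limma log2 fold change -0.46, adjusted p = 0.0404), and Foxa2 and Foxa1 did not pass (-0.22 and -0.49, limma adjusted p = 0.18 and 0.13). Over the 14 genes, 3 rose and 2 fell in RNA-seq (3.92% and 2.86% of all genes fitted), with a median log2 fold change of 0.05.

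Amino acid, urea and methionine metabolism had 7 of 29 genes higher (2.65% of all members), 3 lower and a median of 0.39. Besides Cth, the higher genes included Hal, the first enzyme of histidine breakdown (from 5.75 to 29.3 RPKM, 5.09-fold), Aass, of lysine breakdown (from 11.9 to 57.3 RPKM, 4.81-fold), and Ass1, of the urea cycle (from 18.1 to 73.9 RPKM, 4.08-fold). These 4 genes rested on 10969 to 52351 reads over the pair, and all rose in RNA-seq. Ass1 overlaps the row Gm5424. Cps1, the entry enzyme of the urea cycle, lay below 0, at a log2 ratio of -0.36 (counting interval -0.38 to -0.34).

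In glucose and glycogen metabolism 3 of 22 genes were higher and 3 lower (2.65% and 1.66% of all members), with a median of 0.15. G6pc, the hepatic glucose-6-phosphatase, went from 23.3 to 84.1 RPKM, 3.61-fold higher (95% counting interval 3.47 to 3.75). Pdk4, which restrains pyruvate oxidation, went from 1.22 to 6.85 RPKM, 5.60-fold higher (95% counting interval 4.84 to 6.51). Both rose in RNA-seq (limma log2 fold change 0.57 and 1.59, adjusted p = 0.0146 and 0.029). In insulin and FoxO signalling 2 of 15 were higher and 1 lower. The higher ones were Pdk4 and Igfbp1 (2.04-fold, 95% counting interval 1.87 to 2.22). Igfbp1 did not pass in RNA-seq (limma log2 fold change -0.06, adjusted p = 0.79).

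Fatty acid oxidation and PPARalpha targets had 5 of 32 genes higher and 0 lower (2.65% and 1.66% of all members). The median of this list was 0.33, with 24 of 32 above 0. Ehhadh, the peroxisomal bifunctional enzyme, went from 7.65 to 23.6 RPKM, 3.09-fold higher (95% counting interval 2.96 to 3.23). Acot1, a thioesterase, was 2.23-fold higher (95% counting interval 1.96 to 2.53). In RNA-seq 6 genes of this list rose and 1 fell (3.92% and 2.86% of all genes fitted). Fatty acid and triglyceride synthesis had 5 of 25 higher and 2 lower, with a median of 0.31. Beside Thrsp these included Elovl5, an elongase of polyunsaturated fatty acids (3.44-fold), and Plin5, a lipid droplet protein (2.37-fold).

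HDL, lipases and sterol exchange had a median of 0.32, with 0 lower and 3 of 21 genes higher (1.66% and 2.65% of all members). They were Scarb1, Apoa4 (from 8.02 to 28.0 RPKM, 3.49-fold) and Lrp1, a lipoprotein receptor (from 7.14 to 14.8 RPKM, 2.07-fold). Cholesterol synthesis and uptake had 1 of 19 higher, Insig2, which retains SREBP in the endoplasmic reticulum (from 6.15 to 25.9 RPKM, 4.21-fold higher (95% counting interval 4.01 to 4.43)), and the median was -0.07. Insig2 did not pass in RNA-seq (limma log2 fold change 0.85, adjusted p = 0.0724). Xenobiotic metabolism had 4 of 26 higher, 2 lower and a median of 0.24, beside 5 higher, 0 lower and 0.50 in FXR KO. In Fxr-Flox, Cyp3a11 went from 14.4 to 48.3 RPKM (3.36-fold) and Cyp3a25 from 38.8 to 105 RPKM (2.71-fold). Gsta3, a glutathione transferase, went from 38.0 to 12.2 RPKM there, 3.11-fold lower (95% counting interval 2.99 to 3.23).

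Retinoid metabolism had Cyp26a1 and Cyp26c1 higher and Aldh1a1, which makes retinoic acid, lower (from 11.6 to 4.85 RPKM, 2.39-fold lower (95% counting interval 2.27 to 2.51)), of 12 genes. Aldh1a1 fell in RNA-seq (limma log2 fold change -0.95, adjusted p = 0.0196), as the genes that break retinoic acid down rose (limma adjusted p = 0.0163 for Cyp26a1 and 0.00796 for Cyp26c1). NRF2 and antioxidant genes had a median of 0.47, with Osgin1 and Maff higher of 15 (2.65% of all members were higher). In the same list Gclc, the catalytic subunit of glutathione synthesis, was 2.12-fold lower (95% counting interval 2.02 to 2.22) and its modifier Gclm had a log2 ratio of 0.88. In RNA-seq Gclc fell and Gclm rose (limma log2 fold change -0.66 and 0.58, adjusted p = 0.00763 and 0.00999).

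**Figure D3:**
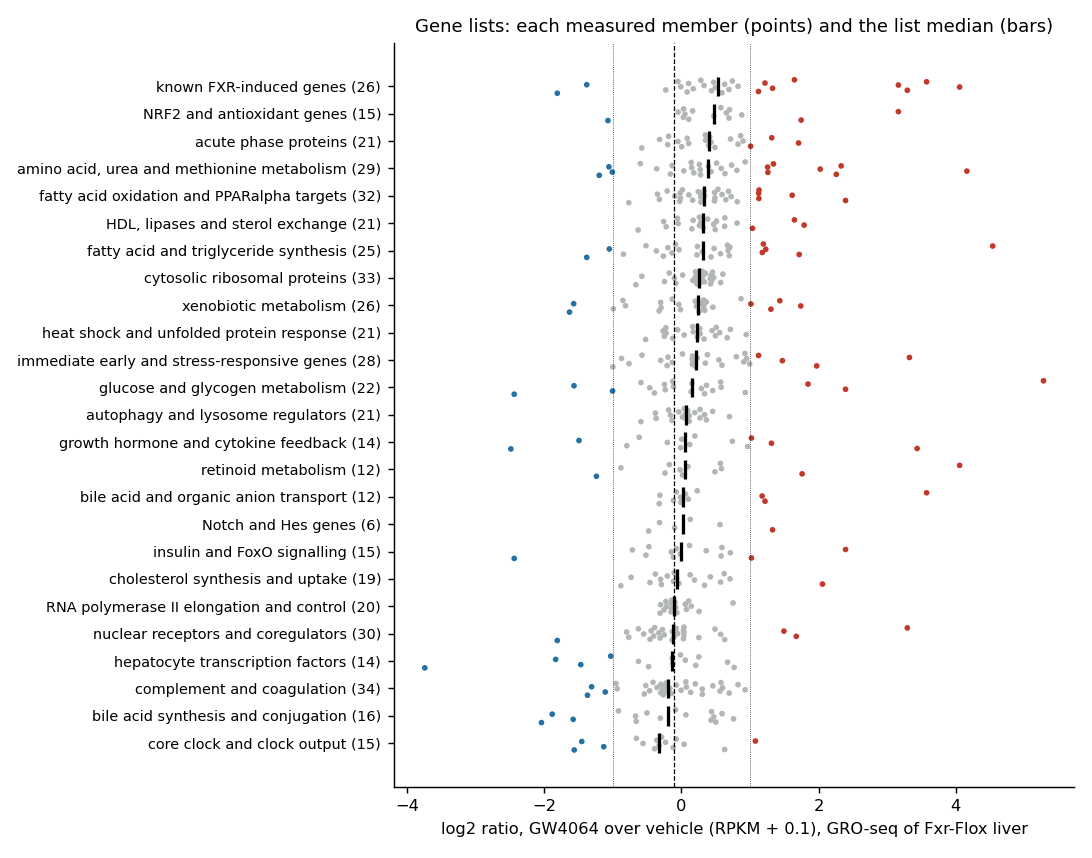
Fxr-Flox log2 ratios (GW4064 over vehicle, RPKM + 0.1, x axis) of every measured gene of 25 lists, with the number of genes in parentheses, bars at the list medians and a dashed line at the median of all 9683 genes (-0.10). Red and blue points lie past 2-fold. Medians run from 0.54 for known FXR-induced genes, a list written with results of these data known, to -0.32 for clock genes.

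Immediate early and stress-responsive genes had a median of 0.22, with 0 lower and 4 of 28 higher (1.66% and 2.65% of all members). They were Gadd45b, Gadd45g (3.95-fold), Jun (2.84-fold) and Cdkn1a (2.22-fold). Gadd45b, Gadd45g and Jun rose in RNA-seq, and Cdkn1a was at 5.86 and 1.84 RPKM with vehicle and 5.23 and 3.06 with GW4064 (limma log2 fold change 0.27, SE 0.56, adjusted p = 0.82). Growth hormone and cytokine feedback had 3 of 14 higher and 2 lower. Igfbp2, Igfbp1 and Stat5b (2.53-fold) were higher. Igf1, the main growth hormone target of liver, was lower with Socs2.

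Igf1 went from 18 to 6.35 RPKM on 19950 and 5249 reads, 2.84-fold lower (95% counting interval 2.76 to 2.93). Its RNA-seq values were 7.38 and 7.42 RPKM with vehicle and 6.05 and 7.41 with GW4064 (limma log2 fold change -0.14, SE 0.11, adjusted p = 0.49). The groups overlapped there, and the limma interval of the RNA change ran from -0.41 to 0.13 on the log2 scale, short of the GRO-seq log2 ratio of -1.49.

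Clock genes had a median of -0.32, the lowest of the 25 lists plotted. Of 15, 1 was higher and 3 lower (2.65% and 1.66% of all members). Bhlhe40, a repressor, was 2.14-fold higher. Dbp (3.06-fold lower (95% counting interval 2.43 to 3.90)) and Hlf (2.85-fold lower (95% counting interval 2.64 to 3.09)), output factors of the clock, were lower. So was Ciart (2.27-fold lower (95% counting interval 1.68 to 3.09)). Dbp differed between the vehicle libraries of RNA-seq, 2.27 and 6.79 RPKM, and the GW4064 libraries, at 2.80 and 5.21 RPKM, lay between them. Complement and coagulation had 0 of 34 higher and 3 lower, C9 (2.7-fold), C6 (2.53-fold) and Klkb1 (2.19-fold), and a median of -0.19.

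Several lists had no gene past 2-fold either way, beside 2.65% of all members higher and 1.66% lower. These were 33 cytosolic ribosomal protein genes (median 0.25), 20 genes of RNA polymerase II elongation and its control (-0.10), 21 autophagy regulators (0.07) and 21 heat shock and unfolded protein response genes (0.23). In lists of this size, counts of 0 lie near those shares. Acute phase proteins had 3 of 21 higher (2.65% of all members were higher). These were Orm1, Orm3 and Saa1, with 425 and 643 reads, 27 and 74 reads and 43 and 84 reads. Of the 6 Notch and Hes genes measured, Hes1 alone was past 2-fold.

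No marker of another cell type was past 2-fold, beside 2.65% of all members higher and 1.66% lower. With so few markers measured, a count of 0 lies near those shares. Over the markers of cholangiocytes, blood cells, Kupffer cells, sinusoidal endothelium and stellate cells that passed the filter, log2 ratios ran from -0.44 (S100a8, of neutrophils) to 0.68 (Hba-a1, a hemoglobin gene). The summed level of the 8 Kupffer cell markers was 6.89 RPKM with vehicle and 8.21 RPKM with GW4064, and that of the 9 endothelial markers was 18.4 and 21.9 RPKM. For stellate cells it was 12.2 and 11.8 RPKM and for other blood cells 17.2 and 20.1 RPKM. Among zonal hepatocyte markers, the periportal ones had a median of 0.73 over 7 genes, with Hal, Ass1 and Sds higher. Cyp2f2, also periportal, lay below 0 at -0.30. Pericentral markers had a median of -0.16 over 8 genes, from Cyp2e1 at -0.85 to Oat at 0.81, and 3 lay above 0. The part of cell composition in the other results was not tested.

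The study placed 15 genes beside enhancer RNAs induced by GW4064, and 10 of these passed the filter here. The list was chosen on libraries of this series, so it is not independent evidence of direction. Of the 10, 8 rose in RNA-seq (3.92% of all genes fitted), on whose libraries the enhancer RNAs were called. In GRO-seq 9 were higher and 0 lower (2.65% and 1.66% of all members), with a median log2 ratio of 1.60. Beside Nr0b2 and Hes1 they were Mfsd2a, a lysolipid transporter (from 12.3 to 48.7 RPKM, 3.98-fold), Gm5122 (5.28-fold), BC039771 (3.65-fold), 4632428C04Rik (3.71-fold), Gpatch3 (3.10-fold), Aldh1l1, of folate metabolism (2.18-fold), and Grn, progranulin (2.08-fold). The tenth, Slc35g1, had a log2 ratio of 0.64.

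The 5 genes beside reduced enhancer RNAs had a median of -0.65 and lay between -1.33 (Akr1c14, the only one past 2-fold) and -0.55 (Rxra). Around Fincor, the induced enhancer RNA that the study followed, Rfk had a log2 ratio of 0.20 and Pcsk5 one of -0.23. Gcnt1 and Prune2 were below the filter, Gcnt1 with 14 and 25 reads (2.39-fold, 95% counting interval 1.2 to 4.97).

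Higher genes often lay side by side. Of 188 higher genes with another, non-overlapping member within 50000 bases, 74 (39.4%) had a higher neighbour, beside 5.1% of all 7310 members with such a neighbour. For lower genes it was 20 of 99 (20.2%), beside 2.67%. Abca2, Clic3 and Paxx lie together on chromosome 2 with log2 ratios of 1.71, 6.39 and 4.01, and G6pc2 and Abcb11 lie 10289 bases apart with 5.28 and 3.57. On chromosome 4, Gpatch3 (1.54) and Gpn2 (1.38) follow Nr0b2 (3.29). Lower neighbours included Akr1c6 and Akr1c20, Ces3a and Ces3b, and Onecut1 with Gm16551 (-2.97).

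Some of these pairs are near copies, such as Hmga1 and Hmga1b, or end close to each other, such as Gps1 and Dus1l (100 bases apart). Reads past the end of a gene and reads shared between copies were not separated in the table, and their part in these counts was not tested. The shares are a description and were not tested either.

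RNA-seq measured total RNA after removal of ribosomal RNA at the same dose and time. The methods name C57BL/6 mice for RNA-seq and the Fxr-Flox line for GRO-seq, so the livers were not the same. With 2 libraries for each treatment, each of pooled RNA, its p-values measure the spread between these libraries. Of 10830 genes fitted there, 424 rose (3.92%) and 310 fell (2.86%) at a limma adjusted p under 0.05. Of the 257 genes higher in GRO-seq, 254 were fitted, and of these 184 rose (72.4%), 0 fell and 70 did not pass. Of the 161 lower genes, 157 were fitted, and 75 fell (47.8%), 0 rose and 82 did not pass. The sign was the same in 246 of the 254 and in 138 of the 157. Both GW4064 libraries lay above both vehicle libraries for 235 of the 254, against 26.2% of all genes fitted, and below both for 120 of the 157, against 28.9%. The number of calls depended on the libraries and on the filter. Without vehicle replicate 2, 257 genes rose and 118 fell, and 48 of the lower genes fell. Without the other libraries in turn, 174 to 186 genes fell. With no filter on the mean, 64 rose and 19 fell.

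The change was smaller in RNA-seq. For the higher genes the median was 1.41 in GRO-seq and 0.87 in RNA-seq on the log2 scale, and for the lower genes it was -1.24 and -0.55. The RNA-seq change was the smaller in size for 241 of 254 higher and 156 of 157 lower genes, which were picked for their size in GRO-seq. Read from RNA-seq instead, 379 of the 393 members that rose had a GRO-seq ratio above 0, and 184 were past 2-fold. Of 308 that fell, 304 lay below 0 and 75 past 2-fold. Across the 9588 members fitted in RNA-seq, Spearman's rho between both changes was 0.59, a description over genes, which are not independent. It was 0.16 for genes with under 50 GRO-seq reads over the pair and 0.82 for genes with 5000 or more.

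Genes past 2-fold in GRO-seq whose RNA-seq estimate had the other sign did not pass the RNA-seq test. Mt2, a metallothionein, went from 11.2 to 39.7 RPKM in GRO-seq, 3.54-fold higher (95% counting interval 2.92 to 4.29), and RNA-seq gave 19.2 and 14.0 RPKM with vehicle and 15.2 and 14.2 with GW4064 (limma log2 fold change -0.15, SE 0.16, adjusted p = 0.62). Its neighbour Mt1 had a GRO-seq log2 ratio of 1.39 and an RNA-seq estimate of -0.10. Saa1 was at 14.5 and 5.59 RPKM with vehicle and 11.4 and 5.41 with GW4064 (limma log2 fold change -0.20, SE 0.54, adjusted p = 0.87), with a large spread between libraries of both groups. Slc25a30, a mitochondrial carrier, was 2.36-fold lower (95% counting interval 2.13 to 2.62) in GRO-seq and had a limma log2 fold change of 0.40 (adjusted p = 0.26). Others were Wdr5b, Spag8, Tefm and Ccl27a, on 35 to 178 reads over the pair.

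**Figure D4:**
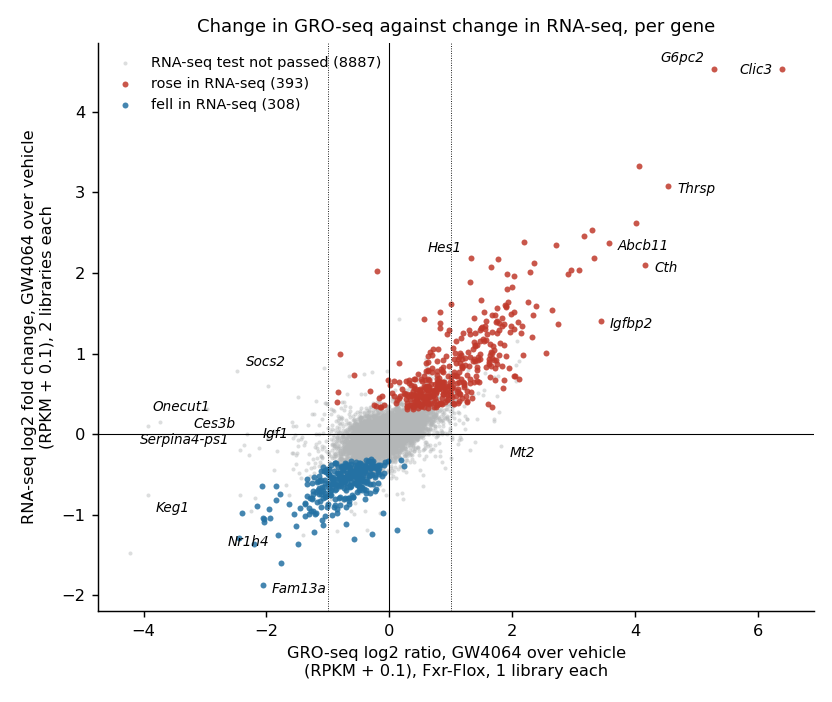
GRO-seq log2 ratio (x axis, Fxr-Flox, 1 library for each treatment) against RNA-seq log2 fold change (y axis, WT, 2 libraries for each treatment) for the 9588 genes fitted in RNA-seq, both on the RPKM + 0.1 scale. Red genes rose (393) and blue genes fell (308) in RNA-seq by limma; Onecut1, Serpina4-ps1 and Socs2 lie far left with RNA-seq estimates near or above 0.

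In the FXR KO livers the same agonist left fewer genes past 2-fold, 70 higher (0.723%) and 49 lower (0.506%). Those libraries held fewer reads, which also bears on how many genes reach 20 reads. Among the 4131 genes with at least 1000 reads in the Fxr-Flox pair, 34 were higher and 9 lower in FXR KO, beside 153 and 90 in Fxr-Flox. Of the 257 genes higher in Fxr-Flox, 21 were also higher by 2-fold in FXR KO and 2 were lower, and the median of the 257 there was 0.03. Of the 161 lower genes, 5 were also lower and 5 were higher, with a median of -0.04. No test of the difference between genotypes could be made with 1 library each.

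Abcb11 was at 1.2 RPKM with vehicle and 1.58 with GW4064 in FXR KO, a log2 ratio of 0.36. Cth was at 9.61 RPKM with vehicle and 8.72 with GW4064, and Igfbp2 at 12.6 RPKM with vehicle and 7.24 with GW4064. The levels of Cth and Igfbp2 without agonist were above those of Fxr-Flox vehicle. Cyp7a1 was at 49.8 RPKM with vehicle and 55.4 with GW4064. These 4 genes rested on 646 to 2815 reads in each FXR KO library and lay within 2-fold. G6pc2 was at 0.121 RPKM with vehicle and 0.0490 with GW4064, on only 5 and 2 reads, and its counting interval on the log2 scale, -4.69 to 1.31, includes a 2-fold difference in either direction.

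Some genes were past 2-fold in both genotypes. Nr0b2 was at 0.118 RPKM with vehicle and 1.19 with GW4064 in FXR KO, on 2 and 20 reads, and its counting interval on the log2 scale ran from 1.30 to 6.48. Osgin1 was at 6.47 RPKM with vehicle and 15.2 with GW4064, Gadd45b at 3.96 RPKM with vehicle and 9.80 with GW4064 and Kcnk5 at 1.93 RPKM with vehicle and 4.36 with GW4064, log2 ratios of 1.22, 1.29 and 1.14. Thrsp went from 0.505 to 1.54 RPKM on 12 and 36 reads, far below its Fxr-Flox level with GW4064. Cyp3a11 went from 28.7 to 113 RPKM, a log2 ratio of 1.98 beside 1.74 in Fxr-Flox. Cyp7b1 was lower in both, with -1.17 in FXR KO and -1.58 in Fxr-Flox. Across all members, Spearman's rho between the ratios of both genotypes was 0.05, over genes that share the libraries' depths.

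**Figure D5:**
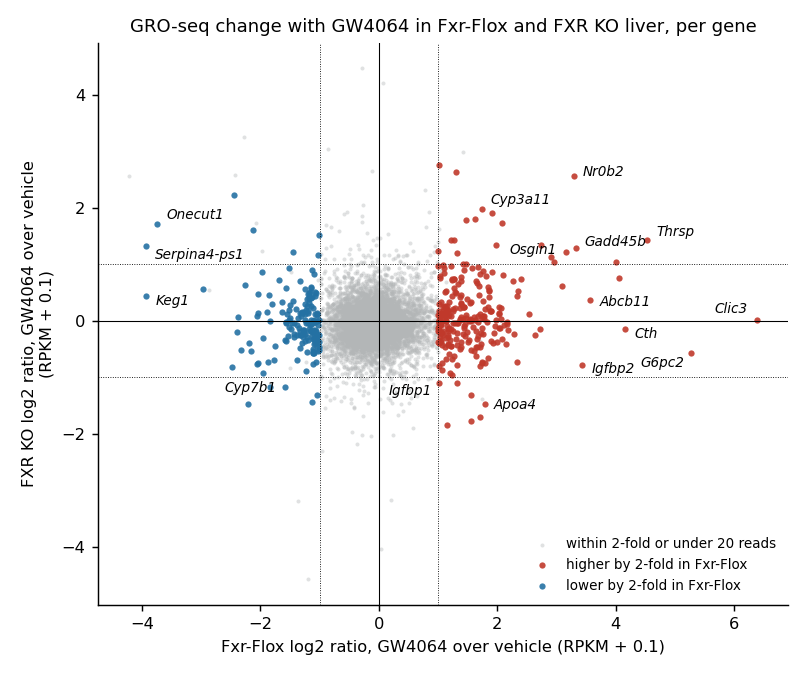
GRO-seq log2 ratio of GW4064 over vehicle (RPKM + 0.1) in Fxr-Flox (x axis) and in FXR KO (y axis) for each of the 9683 genes, with 1 library for each genotype and treatment. Most red and blue genes lie near 0 on the y axis (medians 0.03 and -0.04), and Nr0b2, Osgin1 and Gadd45b are among those above 1 in both.

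Gene length went with a small shift of the ratios. The median log2 ratio was -0.01 over 452 genes of 300 to 2000 bases, 0.01 over 1226 genes of 2000 to 5000 bases and -0.19 over 1578 genes of 50000 to 150000 bases. Above 150000 bases it was -0.13 over 358 genes, of which 3 were higher and 5 lower by 2-fold. In FXR KO the medians over the same classes ran from -0.04 to 0.02, and in RNA-seq from -0.09 to 0.06. Over all 6 classes, from 0.838% to 3.18% of genes were higher and from 1.39% to 3.1% lower by 2-fold.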

How the data were processed

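The table as deposited holds RPKM for 8 libraries: 4 of RNA-seq and 4 of GRO-seq. Per the labels, the authors used bcl2fastq, FastQC, STAR 2.7.3a and HOMER with mm10. RPKM values were made by the authors from reads over whole gene spans, so introns count. No column was left unmapped (0), and no read counts were used as deposited.

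Totals and reads per gene were rebuilt from RPKM and length, where 1 read sets the smallest step. GRO-seq ratios are log2 of RPKM + 0.1, GW4064 over vehicle, for rows of at least 300 bases with a mean of at least 0.5 RPKM. Past 2-fold requires at least 20 reads with either treatment. Intervals are exact (Clopper-Pearson, 95%, scipy 1.17.1) on rebuilt reads, without the added 0.1 RPKM. With 1 library for each group no GRO-seq test was made. RNA-seq was fitted with limma 3.58.1 (R 4.3.3) on log2 of RPKM + 0.1 with a mean-variance trend and Benjamini-Hochberg adjustment over 10830 genes, at 0.05, 2 libraries against 2. The fit was also run on simulated reads. These gave every gene the same relative spread beyond counting error, so they do not cover genes that vary more between libraries. The study's own RNA-seq method needs counts.

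Genes were named by rule: the 15 highest and lowest ratios, the 8 highest and lowest among genes with at least 1000 reads (both without predicted genes and clones), all measured members of the FXR, bile acid, enhancer RNA and Fincor lists, up to 4 genes with the largest ratios of every other list, the 8 largest RNA-seq changes of opposite sign, and Nr1h4. Members, rule and lists were chosen with earlier results of these data known. Same-numbered RNA-seq libraries are not tied by the labels, so no pairing was used. Alternatives changed the added RPKM, filters, centring, read minimum, RNA-seq method and libraries used. Some genes that the rule names are not reported here.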

Additional observations from a re-analysis of the deposited data

Results flagged for a closer look

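Past 2-fold in opposite directions in the Fxr-Flox and FXR KO pairs were 6 genes reported here. The difference between genotypes was not tested, since each group had 1 library. Onecut1 went from 8.01 to 0.507 RPKM in Fxr-Flox and from 0.975 to 3.44 RPKM in FXR KO, a log2 ratio of 1.72 there (95% counting interval 1.54 to 2.10). Serpina4-ps1 went from 35.4 to 2.22 RPKM in Fxr-Flox and from 2.56 to 6.54 RPKM in FXR KO, with 1.32 there (1.04 to 1.67). For both genes the highest of the 4 GRO-seq libraries was Fxr-Flox vehicle.

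Apoa4, an apolipoprotein, ran the other way, from 8.02 to 28.0 RPKM in Fxr-Flox and from 107 to 38.6 RPKM in FXR KO, with a log2 ratio of -1.47 there (-1.62 to -1.32). Igfbp1 was similar in sign, with 1.02 in Fxr-Flox and -1.10 in FXR KO (-1.26 to -0.94), from 42.7 to 19.9 RPKM. None of these 4 genes passed the RNA-seq test of the WT livers.

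The remaining 2 were picked after their values were seen. Hcn3, a channel gene that lies beside Pklr, had -1.46 in Fxr-Flox and 1.22 in FXR KO. Gm6402, whose row lies inside Btbd9, had -1.0 in Fxr-Flox and 1.53 in FXR KO on only 8 and 24 reads.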

How the results depend on the processing

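The GRO-seq counts of 257 higher and 161 lower genes stayed within 1.5 times under most planned changes. The exceptions were these: with 1 RPKM added they became 140 and 62, with the FXR list median at 0.45, and a counting interval wholly past 2-fold left 101 lower genes. Centring on the median (a shift of 0.10) gave 310 higher and 124 lower, 71.4% higher against 61.5%, and an FXR list median of 0.64. Restricting to rows that overlap no other row, chosen after seeing the data, gave 204 and 132. In RNA-seq, no filter on the mean gave 64 rising and 19 falling genes, with 46 of the GRO-seq higher genes rising and 4 of the lower genes falling, and limma-voom on rebuilt reads gave 641 and 636. Leaving out 1 library, where the lone library is assumed to vary like the others, gave 257 to 322 rising and 118 to 186 falling genes. It left 152 to 181 of the higher genes rising and 48 to 68 of the lower genes falling. The lowest values 257, 118 and 48 came without vehicle replicate 2; falling genes were also below 310 by over 1.5 times without vehicle replicate 1 (174), GW4064 replicate 1 (179) and GW4064 replicate 2 (186). No result reversed. The cause of these shifts was not tested.

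With the replicate number as a block, 494 genes rose and 363 fell in RNA-seq. Same-numbered libraries deviated together with a correlation of 0.098, and the labels do not pair them.

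The spread between livers is not known for GRO-seq, and genes with few reads, such as Clic3 with 3 vehicle reads, have wide intervals. Rows count both strands and introns, so overlapping genes share reads. FXR KO libraries were shallower than those of Fxr-Flox.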
